A study of Mus musculus with 6 samples.

Results

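Cadherins and protocadherins were followed in RNA of mouse cerebellum at 6wk (6 weeks of age) and P7 (day 7 after birth). The members were the genes of an exon array whose symbol was Cdh plus digits, Pcdh plus digits with or without a further suffix, or Pcdhb plus digits, taken from array rows annotated to exactly 1 gene symbol. They numbered 56 of the 17858 genes measured. There were 23 cadherins, of which 5 were type I classical, 13 type II classical and 5 of other kinds. A further 11 were non-clustered protocadherins and 22 were beta protocadherins of the clustered family. Pcdh15 and the alpha and gamma protocadherins were not analysed here. Both ages came from C57BL/6 mice, a common inbred strain, with 3 arrays each and no treatment or genetic change in the labels. The series relates expression to 5-hydroxymethylcytosine, a DNA base made by oxidising 5-methylcytosine. Whether arrays of 1 age came from separate animals is not stated. The Y-linked genes Eif2s3y and Kdm5d had log2 values of 10.49 and 8.13 in 6wk replicate 1. In all other arrays, those of P7 included, they were at most 5.66 and 6.61. The 6wk arrays were thus not all of the same tissue sample. The p-values below rest on the spread among the arrays alone, which may still be technical in part.

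Classical cadherins are calcium-dependent adhesion proteins that bind the same or a related cadherin on the opposite cell and connect to actin through catenins. Type II cadherins are expressed in different combinations by neurons of different nuclei and layers, and cadherin-dependent sorting takes part in the layering and wiring of the cerebellum. Delta protocadherins are weaker adhesion proteins that act in axon growth and in the sorting of neurons, while the clustered protocadherins are expressed in varied combinations by single neurons and give each neuron a surface identity. At 6wk granule neuron production and migration in the mouse cerebellum have ended, whereas at P7 both are under way.

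All values are log2 expression after RMA, which corrects background, normalizes the arrays to each other and summarises the probes of a gene, and a difference is the 6wk mean minus the P7 mean. Array medians were 7.82 to 7.88 at 6wk and 7.92 to 7.97 at P7. The P7 arrays were not alike in their tissue markers. The summed signal of 8 mature granule neuron markers was 14.47 to 14.73 on the log2 scale in the 6wk arrays, and 13.92, 12.23 and 13.47 in P7 replicates 1, 2 and 3. Fat2, a giant cadherin typical of granule neurons, read 11.54, 11.24 and 11.27 at 6wk, and 10.93, 6.80 and 10.27 at P7. In contrast, the summed signal of 10 markers of tissue next to the cerebellum was 10.90, 11.35 and 11.33 at 6wk, and 11.11, 12.64 and 12.20 at P7. Of these 10 markers 8 were highest in P7 replicate 2 among the P7 arrays, among them the dopamine and serotonin genes, while the hindbrain genes Hoxb2 and Hoxb3 were lowest there. The limma test called 0 of the 10 between ages (2 had an unadjusted p under 0.05). Of the other marker lists, granule neuron progenitors had 1 higher and 3 lower of 9, Purkinje cells 2 higher and 0 lower of 5, Bergmann glia and astrocytes 2 higher and 3 lower of 7, meninges 0 higher and 4 lower of 10, choroid plexus 0 higher and 1 lower of 8, and GABAergic interneurons 0 of 8 (3 with an unadjusted p under 0.05). Over all genes 8.26% were higher and 13.4% lower. Without P7 replicate 2 the lower calls became 6 in both the progenitor and the meninges list, and over all genes the lower share became 17.2%. P7 replicate 2 was thus lowest for the summed granule neuron markers and highest for the summed markers of neighbouring tissue. Results are therefore also given without that array, or with P7 replicate 1 as the single P7 array, a fit added after seeing the data. The fit with a single P7 array measures no spread at P7 and takes the lone array to vary like those at 6wk.

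Between the ages, 25 of the 56 members (44.6%) passed the limma test (two-sided, Benjamini-Hochberg adjusted p under 0.05 over all genes), against 21.7% of all genes. At 6wk 20 members were lower, which is 35.7% of members against 13.4% of all genes, and 5 were higher, which is 8.93% of members against 8.26% of all genes. The share of lower members was above that of all genes, and the share of higher members was near it. The median difference was -0.32 over the members and -0.05 over all genes. Values of the 2 ages did not overlap in 36 members (64.3%), against 42.1% of all genes. Differences of at least 2-fold that passed were seen in 13 of 56 members, against 5.3% of all genes. Centring each array on its median moved the median of all genes by 0.11 and gave 7 higher and 16 lower members, and a further quantile normalization gave 7 and 17, so lower members made up 80.0% of member calls as deposited, 69.6% centred and 70.8% quantile-normalized. Over all genes the lower share of calls was 61.9%, 43.3% and 45.0% in the same order. Without P7 replicate 2 the test called 5 higher and 21 lower members (46.4%, against 26.8% of all genes), and all 25 calls were kept. Leaving out P7 replicate 3 reduced the calls to 3 higher and 12 lower, and leaving out 6wk replicate 1, 2 or 3 reduced them to 3 and 12, 3 and 13, or 4 and 11. The calls over all genes also dropped in these 4 fits, to between 9.22% and 11.3% of genes, against 26.8% to 28.6% of members. With P7 replicate 1 alone, 3 were higher and 15 lower (32.1% of members, against 22.6% of all genes), and 14 of the 25 calls were kept.

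**Figure D1:**
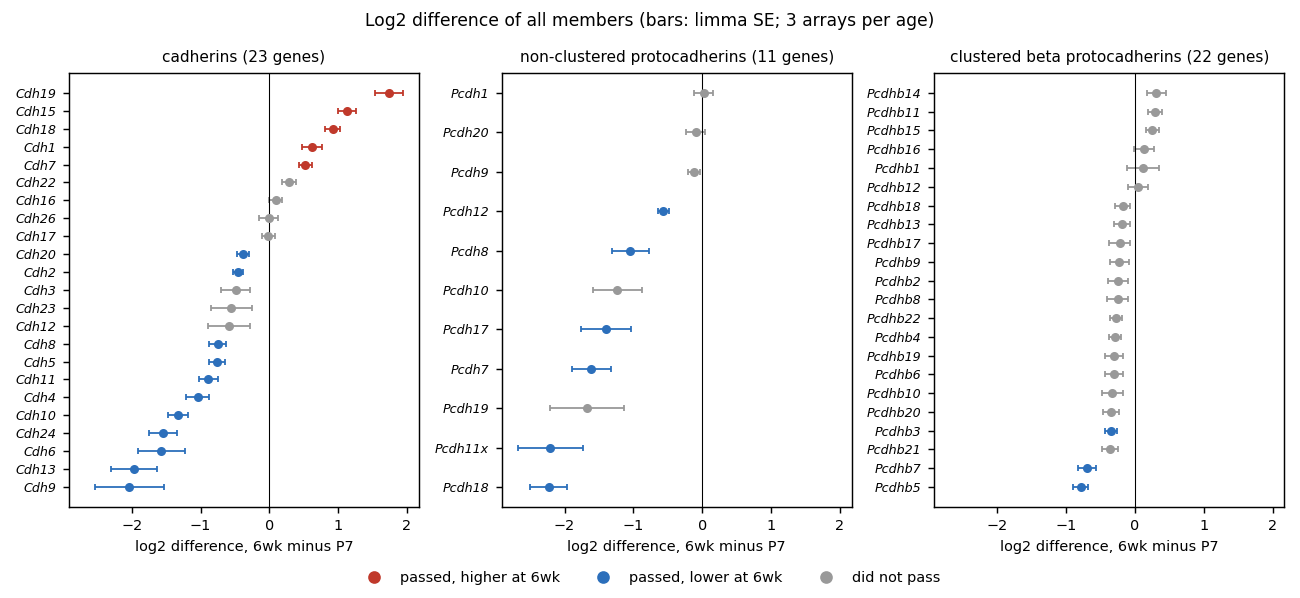
Log2 difference (6wk minus P7, horizontal axis) of all 56 members in 3 panels by class, with points coloured by the result of the limma test and bars giving its standard error. The cadherins run from -2.03 for Cdh9 to 1.74 for Cdh19, the non-clustered protocadherins lie at or left of 0.02, and the beta protocadherins lie between -0.79 and 0.31.

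Calls were spread unevenly over the 3 classes, and the unevenness itself was not tested. Among the 18 classical cadherins 15 passed, 10 lower and 5 higher (median difference -0.54). Of the non-clustered protocadherins 6 of 11 were lower and 0 higher (median -1.23), and 3 members had differences near 0. Of the beta protocadherins 3 of 22 (13.6%) were lower and 0 higher (median -0.25), a share near the 13.4% of all genes. These medians were -0.43, -1.12 and -0.14 after centring on array medians. RNA of a whole tissue was measured, in which fewer cells of a type and less RNA per cell cannot be told apart.

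Of the 13 type II classical cadherins 8 were lower and 3 higher at 6wk. The largest of these differences was that of Cdh9, a cadherin of synapses between specific neurons, which read 5.26, 6.40 and 6.04 at 6wk and 7.01, 8.84 and 7.94 at P7 (difference -2.03, SE 0.50, limma adjusted p = 0.0319). Cdh6, expressed in subsets of neurons and in the developing kidney, read 7.2, 7.81 and 7.83 at 6wk and 8.58, 9.87 and 9.10 at P7 (difference -1.57, SE 0.345, adjusted p = 0.0225). In both genes P7 replicate 2 was the highest array and 6wk replicate 1 the lowest, and the ages did not overlap. Neither call held when P7 replicate 3 or 1 of the 6wk arrays was left out (adjusted p up to 0.104 for Cdh9 and 0.0793 for Cdh6). With P7 replicate 1 alone the differences were -1.11 and -0.97, and neither passed. The 6wk mean of Cdh9, 5.90, lay under the first quartile of every array (6.89 to 7.03), where an array may no longer follow the RNA level, so the size of its difference is uncertain.

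Cdh24 and Cdh10 gave the next largest falls and were called in each fit that left out 1 array. Cdh24, whose human counterpart binds beta- and alpha-catenin, read 7.52, 7.75 and 7.86 at 6wk and 8.88, 9.62 and 9.27 at P7 (difference -1.55, SE 0.20, adjusted p = 0.00385). Cdh10, a neuronal cadherin also found in brain endothelium, read 7.96, 8.47 and 8.26 at 6wk against 9.5, 9.66 and 9.53 at P7 (difference -1.33, SE 0.14, adjusted p = 0.00215). The 3 P7 arrays of Cdh10 lay close together, and its difference was -1.28 without P7 replicate 2. With P7 replicate 1 alone, the difference was -1.17 for Cdh24 and -1.27 for Cdh10, and both passed.

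Cdh11 and Cdh8 fell by less. Cdh11, found in mesenchyme, bone and neurons, read 9.90, 9.90 and 9.89 at 6wk and 10.51, 10.98 and 10.85 at P7 (difference -0.89, SE 0.13, adjusted p = 0.00635). Cdh8, which marks particular nuclei and layers of the brain, read 8.85, 8.52 and 8.62 at 6wk and 9.33, 9.57 and 9.35 at P7 (difference -0.75, SE 0.12, adjusted p = 0.00826). The 6wk arrays of Cdh11 were nearly equal (SD 0.00787), and its ages were separated by more than the spread of the P7 arrays. Cdh20 read 8.92, 9.03 and 9.06 at 6wk and 9.42, 9.33 and 9.42 at P7 (difference -0.39, SE 0.0835, adjusted p = 0.0214). The call of Cdh20 depended on P7 replicate 3 and on each 6wk array (adjusted p up to 0.103 when 1 was left out). It missed the threshold after median centring (-0.28, adjusted p = 0.0501) and with P7 replicate 1 alone (-0.41, adjusted p = 0.0564).

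Cdh5, the VE-cadherin of endothelial junctions, read 9.03, 9.0 and 8.92 at 6wk and 9.91, 9.54 and 9.80 at P7 (difference -0.76, SE 0.12, adjusted p = 0.00676). Unlike most falling members it was lowest in P7 replicate 2 among the P7 arrays, and without that array it fell by 0.87. Pcdh12, a protocadherin also known from endothelial cells, read 7.31, 7.18 and 7.35 at 6wk and 7.81, 7.90 and 7.82 at P7 (difference -0.56, SE 0.0868, adjusted p = 0.00695). Both genes were called in each fit that left out 1 array and with P7 replicate 1 alone. Of 12 endothelial and pericyte markers 9 were lower and 1 higher (median difference -0.49). The share called was 83.3%, against 21.7% of all genes. The summed signal of these markers was 11.77 to 11.86 at 6wk and 12.20 to 12.25 at P7. Cldn5, a tight junction protein, and Esam, an endothelial adhesion molecule, fell by 1.21 and 0.56 (adjusted p of 0.00255 and 0.0107). Kdr, the receptor for vascular endothelial growth factor, fell by 1.74 (SE 0.0901, adjusted p = 0.000478), whereas the blood-brain barrier transporter Slco1a4 rose by 1.40 (SE 0.10, adjusted p = 0.000761). The part of endothelial cell number in the falls of Cdh5 and Pcdh12 was not tested.

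Cdh19, Cdh18 and Cdh7 were the type II cadherins that rose. Cdh19, known from Schwann cells and other glia, read 7.23, 7.96 and 7.64 at 6wk and 5.89, 5.66 and 6.05 at P7. Its difference of 1.74 (SE 0.20, adjusted p = 0.00268), or 3.34-fold, was the largest rise of the family, and the ages were separated by over 1 log2 unit. The P7 mean of Cdh19, 5.87, lay under the first quartile of every array, so the size of its rise is uncertain. Cdh18, a cadherin of the central nervous system, read 10.51, 10.32 and 10.37 at 6wk and 9.32, 9.65 and 9.48 at P7 (difference 0.92, SE 0.11, adjusted p = 0.00343). Cdh7, which in the mouse is found in granule neurons and the pontine neurons that innervate them, read 9.63, 9.68 and 9.51 at 6wk and 9.19, 9.01 and 9.04 at P7 (difference 0.52, SE 0.0941, adjusted p = 0.0118). The rises of Cdh19 and Cdh18 were called in each fit that left out 1 array and with P7 replicate 1 alone (1.72 and 1.08). That of Cdh7 was lost without P7 replicate 3, 6wk replicate 1 or 6wk replicate 2 (adjusted p up to 0.0647) and with P7 replicate 1 alone (0.41, adjusted p = 0.0647).

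Of 7 oligodendrocyte lineage markers, set beside Cdh19 as another glial list, 3 were lower and 0 higher (median -0.12). Over all genes 13.4% were lower and 8.26% higher. The lower genes were the lineage and precursor genes Olig1 (-0.96), Olig2 (-1.03) and Cspg4 (-0.85), whereas the myelin genes Mobp, Mog, Mag and Mbp differed by 0.52, 0.47, 0.06 and -0.12 and did not pass. The list's summed signal was 12.65, 13.11 and 13.05 at 6wk and 12.97, 13.11 and 13.25 at P7. Of 8 mature granule neuron markers 4 were higher and 0 lower (median 1.85). Without P7 replicate 2 these were 6 and 0 (median 1.00), in a fit that called 9.56% of all genes higher. The part of either cell type in the rises was not tested. The type II cadherins that did not pass were Cdh22 and Cdh12. Cdh22 read 9.77, 9.73 and 9.58 at 6wk and 9.40, 9.51 and 9.31 at P7 (difference 0.28, adjusted p = 0.0874). The values of Cdh22 did not overlap between ages, and median centring brought it past the threshold (0.39, adjusted p = 0.0450). Cdh12 read 8.39, 8.56 and 8.5 at 6wk and 8.42, 9.72 and 9.07 at P7, where replicate 1 lay within the 6wk range (difference -0.59, adjusted p = 0.224).

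**Figure D2:**
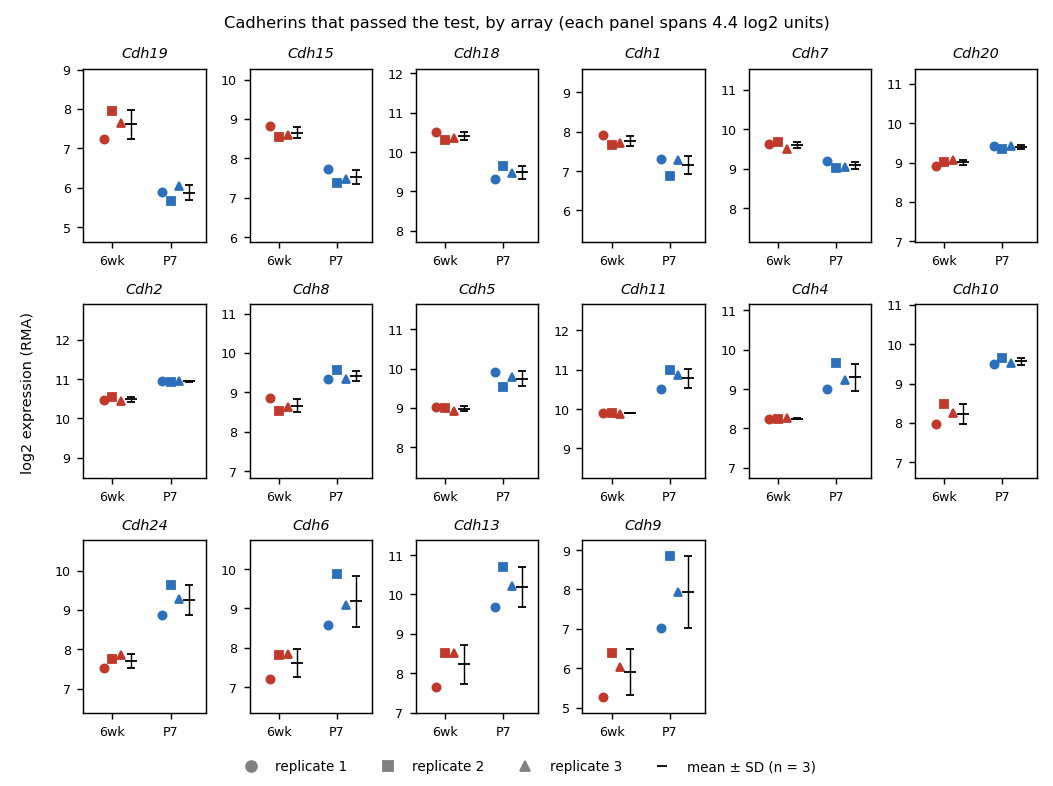
Log2 expression of the 16 cadherins that passed, 1 panel per gene, with the 6wk arrays left of the P7 arrays and marker shapes for the replicate number; black bars give mean ± SD (n = 3). The ages do not overlap in any panel, and P7 replicate 2 (square) is well above the other P7 arrays in Cdh6, Cdh13 and Cdh9 but not in Cdh10 or Cdh2.

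Type I classical cadherins moved in both directions. Cdh2, the N-cadherin of neural progenitors and synapses, read 10.46, 10.55 and 10.44 at 6wk and 10.95, 10.92 and 10.96 at P7 (difference -0.46, SE 0.0785, adjusted p = 0.00979). The P7 arrays were nearly equal and the fall was small, and the call was lost without P7 replicate 3 or 6wk replicate 3 (adjusted p up to 0.0596). Cdh4, the R-cadherin of retina, brain and muscle, read 8.23, 8.25 and 8.28 at 6wk and 8.99, 9.67 and 9.22 at P7 (difference -1.05, SE 0.17, adjusted p = 0.00858).

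Cdh15, the M-cadherin of muscle satellite cells that is also present at contacts of cerebellar granule neurons, read 8.81, 8.54 and 8.60 at 6wk and 7.74, 7.37 and 7.46 at P7. It rose by 1.13 (SE 0.13, adjusted p = 0.00267), with the ages well apart, and by 0.91 with P7 replicate 1 alone. Cdh1, the E-cadherin of epithelia, read 7.92, 7.67 and 7.71 at 6wk and 7.3, 6.88 and 7.27 at P7 (difference 0.61, SE 0.14, adjusted p = 0.0273). The rise of Cdh1 failed the test when P7 replicate 3 or 1 of the 6wk arrays was dropped (adjusted p up to 0.0969), and with P7 replicate 1 alone (0.46, adjusted p = 0.0768). Cdh3, the P-cadherin, read 6.81, 6.94 and 6.99 at 6wk and 7.87, 7.08 and 7.27 at P7 and did not pass (difference -0.49, adjusted p = 0.143). Cdh3 and Cdh1 lie side by side in the RefSeq gene order with opposite signs, and Cdh3 passed without P7 replicate 2 (-0.66, adjusted p = 0.0463) and with P7 replicate 1 alone (-0.96, adjusted p = 0.0108).

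Among the other cadherins the single call was Cdh13, the T-cadherin, which is held in the membrane by a lipid anchor and has no catenin-binding tail. It read 7.66, 8.52 and 8.5 at 6wk and 9.68, 10.69 and 10.22 at P7 (difference -1.97, SE 0.33, adjusted p = 0.00893). The ages were over 1 log2 unit apart, 6wk replicate 1 was the lowest array of its age and P7 replicate 2 the highest of its own, and with P7 replicate 1 alone the difference was -1.45 (adjusted p = 0.0638). Cdh23, a component of hair cell tip links, read 6.64, 7.21 and 7.0 at 6wk and 6.89, 8.01 and 7.62 at P7, with overlap (difference -0.56, adjusted p = 0.236). Cdh16, Cdh17 and Cdh26, known from kidney, intestine and other epithelia, differed by 0.09, -0.01 and -0.01 and overlapped between ages (adjusted p from 0.527 to 0.959).

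Several cadherin genes are neighbours in the RefSeq gene order of assembly GRCm38.p6, and neighbours did not always move alike. Cdh6, Cdh9, Cdh10 and Cdh12 follow each other with 0 protein-coding genes between them, and differed by -1.57, -2.03, -1.33 and -0.59. Cdh18, the next cadherin of that row after 1 other gene, differed by 0.92. Cdh8, Cdh11 and Cdh5 follow each other likewise and fell by 0.75, 0.89 and 0.76. Cdh7 and Cdh19 are direct neighbours and rose by 0.52 and 1.74. The 3 neighbouring sets were picked for their position, with their values already known, and no test was run on them.

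As 5-hydroxymethylcytosine lies mostly at CpG dinucleotides, promoters were read for their CpG number. RefSeq promoters of GRCm38.p6 (300 bases, from 250 before to 50 after the gene start) were matched for 21 of the 56 members, with 24 promoters in all. The shown genes are those with 1 matched promoter that had the 2 largest falls, Pcdh18 and Cdh9, and the 2 largest rises, Cdh15 and Cdh18, among called members. Capitals mark each CpG, and the strand printed is that of the gene.
Pcdh18 (chr3:49757267-49757566, minus strand, 23 CpG): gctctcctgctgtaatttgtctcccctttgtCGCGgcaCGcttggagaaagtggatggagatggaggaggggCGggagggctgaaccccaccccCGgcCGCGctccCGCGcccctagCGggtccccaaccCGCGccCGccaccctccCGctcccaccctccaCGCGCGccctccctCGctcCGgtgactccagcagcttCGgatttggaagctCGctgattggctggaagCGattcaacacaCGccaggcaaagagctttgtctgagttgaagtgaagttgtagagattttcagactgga
Cdh9 (chr15:16728665-16728964, plus strand, 8 CpG): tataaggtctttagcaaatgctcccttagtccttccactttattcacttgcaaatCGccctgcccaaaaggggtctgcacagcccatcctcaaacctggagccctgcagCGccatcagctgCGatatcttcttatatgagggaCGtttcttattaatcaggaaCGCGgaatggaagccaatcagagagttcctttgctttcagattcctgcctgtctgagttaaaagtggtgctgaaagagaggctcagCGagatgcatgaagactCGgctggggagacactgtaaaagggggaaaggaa
Cdh15 (chr8:122848124-122848423, plus strand, 7 CpG): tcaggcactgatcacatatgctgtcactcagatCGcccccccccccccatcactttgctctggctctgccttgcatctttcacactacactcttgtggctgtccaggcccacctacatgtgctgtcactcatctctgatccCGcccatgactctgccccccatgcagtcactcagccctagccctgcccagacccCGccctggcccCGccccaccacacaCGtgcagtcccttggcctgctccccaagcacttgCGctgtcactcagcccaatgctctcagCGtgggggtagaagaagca
Cdh18 (chr15:23036213-23036512, plus strand, 12 CpG): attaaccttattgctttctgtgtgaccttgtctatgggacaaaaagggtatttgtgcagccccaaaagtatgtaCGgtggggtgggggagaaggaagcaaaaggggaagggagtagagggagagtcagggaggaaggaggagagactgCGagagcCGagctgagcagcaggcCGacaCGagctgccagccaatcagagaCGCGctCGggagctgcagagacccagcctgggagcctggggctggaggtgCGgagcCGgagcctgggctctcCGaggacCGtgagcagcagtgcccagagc

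The matched member promoters held a median of 16 CpG, against 7 in all 32851 RefSeq promoters. They included no beta protocadherin and, of the type I cadherins, only Cdh15, so the median does not describe all members. In the 10 promoters of lower members the number ranged from 2 in Cdh10 to 30 in Cdh24, with a median of 16. In the 5 promoters of higher members, which belong to 3 genes, it ranged from 4 to 19, with a median of 12. The range of the higher members lay within that of the lower members, and both of its ends came from Cdh7. With 3 higher genes this cannot decide whether CpG number goes with direction. The 9 promoters of members that did not pass had a median of 18. Methylation was not measured in the values used here.

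Of the 11 non-clustered protocadherins 6 fell at 6wk, 2 more had differences of over 1 log2 unit that did not pass, and 3 had differences near 0. Pcdh18, a delta-2 protocadherin that binds the reelin adaptor Dab1, read 6.67, 7.22 and 7.07 at 6wk and 8.79, 9.74 and 9.14 at P7. Its difference of -2.23 (SE 0.26, adjusted p = 0.00292) was the largest of all members, and the ages were over 1.5 log2 units apart. It was called in each fit that left out 1 array, and with P7 replicate 1 alone (-1.80, adjusted p = 0.0127).

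The other delta-2 protocadherins differed by -1.05 to -1.68 and depended on the choice of P7 arrays. Pcdh17, which acts in axon growth and at presynaptic sites, read 7.86, 8.30 and 8.19 at 6wk and 8.69, 10.18 and 9.65 at P7 (difference -1.40, SE 0.36, adjusted p = 0.0392). Pcdh8, whose rat counterpart arcadlin is induced by neuronal activity, read 6.96, 7.07 and 6.89 at 6wk and 7.43, 8.55 and 8.07 at P7 (difference -1.05, SE 0.27, adjusted p = 0.0367). Both calls needed P7 replicate 3 and each 6wk array (adjusted p up to 0.127 and 0.118 when 1 was left out), and neither held after median centring (adjusted p of 0.0549 and 0.0596). Pcdh19, an X-linked gene whose human counterpart is mutated in an epilepsy syndrome, read 7.05, 8.03 and 7.82 at 6wk and 8.20, 10.28 and 9.46 at P7 (difference -1.68, SE 0.54, adjusted p = 0.0713). Pcdh10, which acts in axon guidance and in synapse elimination, read 8.37, 8.86 and 8.76 at 6wk and 9.13, 10.55 and 10.01 at P7 (difference -1.23, SE 0.35, adjusted p = 0.0521). Pcdh19 and Pcdh10 did not pass, although their ages did not overlap. In all 4 genes P7 replicate 1 lay nearer to the 6wk arrays than P7 replicates 2 and 3 did. With that array alone Pcdh17 and Pcdh8 differed by -0.58 and -0.46, less than 0.5 times their differences with 3 arrays, and did not pass.

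Of the 4 delta-1 protocadherins 2 fell. Pcdh11x, an X-linked protocadherin of neurons, read 7.36, 8.37 and 8.17 at 6wk and 9.26, 11.03 and 10.24 at P7 (difference -2.21, SE 0.48, adjusted p = 0.0212). Pcdh7, a binding partner of protein phosphatase 1, read 7.58, 8.64 and 8.44 at 6wk and 9.62, 10.11 and 9.76 at P7 (difference -1.61, SE 0.29, adjusted p = 0.0114). Pcdh7 varied less over the P7 arrays than Pcdh11x and was called in each fit that left out 1 array. Pcdh11x was not called once P7 replicate 3 or 1 of the 6wk arrays was left out (adjusted p up to 0.0781). With P7 replicate 1 alone the differences were -1.29 and -1.40 (adjusted p of 0.0993 and 0.0908). Eif2s3y, on the Y chromosome, was at 10.49 in 6wk replicate 1 and at 5.42 to 5.66 in the other 5 arrays. That array was the lowest at 6wk for the X-linked Pcdh11x and Pcdh19, and also for Cdh9, Cdh13 and Pcdh7, which RefSeq places on autosomes. The part of sex in these values was not tested.

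Pcdh9, Pcdh1 and Pcdh20 were the members near 0. Pcdh9, a delta-1 protocadherin of neurons, read 10.63, 10.69 and 10.67 at 6wk and 10.67, 10.86 and 10.82 at P7 (difference -0.12, SE 0.0871, adjusted p = 0.378). Pcdh1, known from epithelia and blood vessels, read 8.69, 8.57 and 8.65 at 6wk and 8.37, 8.88 and 8.60 at P7 (difference 0.02, adjusted p = 0.938). Pcdh20 differed by -0.09 (SE 0.14, adjusted p = 0.672). All 3 overlapped between ages. Pcdh9 and Pcdh20 are direct neighbours in the gene order, with Pcdh17 and Pcdh8, which fell, next in that row.

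**Figure D3:**
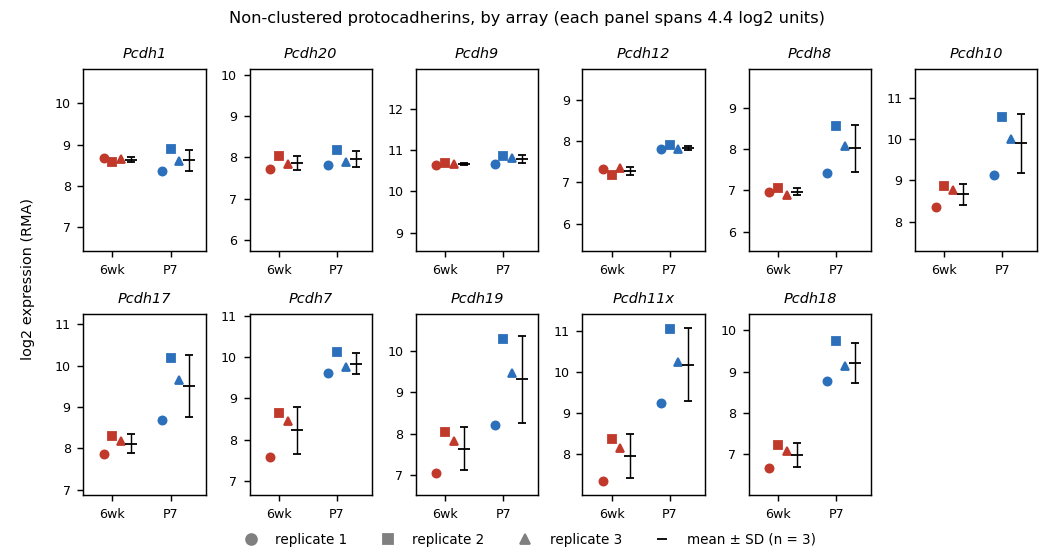
Log2 expression of the 11 non-clustered protocadherins, 1 panel per gene, with the 6wk arrays left of the P7 arrays, marker shapes for the replicate number and black bars for mean ± SD (n = 3). P7 replicate 2 (square) is the highest and P7 replicate 1 (circle) the lowest P7 array in every panel, with Pcdh18 and Pcdh7 still far above their 6wk arrays in P7 replicate 1.

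The non-clustered protocadherins shared 1 order over the P7 arrays. In 11 of 11 members P7 replicate 1 was lowest, P7 replicate 3 intermediate and P7 replicate 2 highest, an order shown by 33.5% of all genes. The median excess of P7 replicate 2 over P7 replicate 1 was 0.96 in these protocadherins, 1.42 in the 5 delta-2 members and 0.02 over all genes. In 8 of the 11 members (72.7%) 6wk replicate 1 was the lowest 6wk array, against 39.6% of all genes. The summed markers of tissue next to the cerebellum had the same order, with 10.90 in 6wk replicate 1, the lowest at that age, and 11.11, 12.20 and 12.64 in P7 replicates 1, 3 and 2. Of its 10 members 8 had this P7 order, among them Slc6a4, the serotonin transporter, which read 6.18, 7.34 and 6.59 at 6wk and 6.07, 9.82 and 9.33 at P7. The other members, Hoxb2 and Hoxb3, ran otherwise. Hoxb2 read 6.63, 7.68 and 8.01 at 6wk and 7.83, 6.32 and 7.86 at P7. The summed GABAergic interneuron markers also had this order, with 12.35, 12.68 and 12.60 at 6wk and 12.17, 13.13 and 12.67 at P7, and 5 of their 8 members shared it. Cadherins shared this P7 order in 14 of 23 members and beta protocadherins in 3 of 22. The 14 cadherins were 8 of 13 type II, 1 of 5 type I and all 5 of other kinds. The part of neighbouring tissue or of interneurons in the falls of the protocadherins was not tested. Without P7 replicate 2 the median difference of the non-clustered protocadherins was -0.91. In that fit 6 of 11 were lower, against 17.2% of all genes. With P7 replicate 1 alone the median difference of the non-clustered protocadherins was -0.53.

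**Figure D4:**
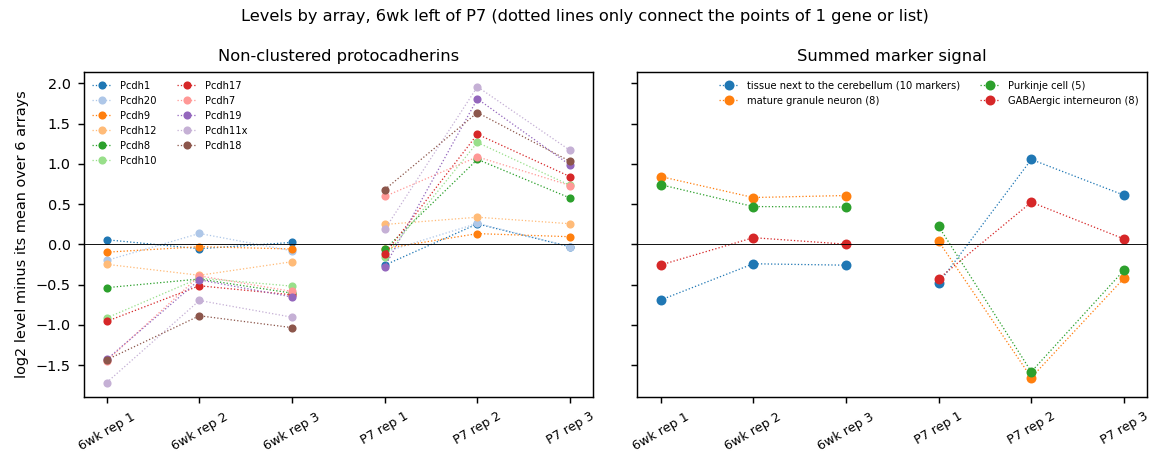
Left, log2 level of each non-clustered protocadherin minus its mean over the 6 arrays. Right, the summed signal of 4 marker lists on the same scale, with 6wk arrays left of P7 arrays; dotted lines only connect points of 1 gene or list. Within P7, the protocadherins and the markers of neighbouring tissue and GABAergic interneurons are highest in replicate 2, where the granule neuron and Purkinje cell markers are lowest.

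Of the 22 beta protocadherins 3 passed, all lower at 6wk. The number passing in each direction depended on the scaling and on the weighting of arrays. There were 2 higher and 2 lower after quantile normalization, in a fit that called 12.0% of all genes higher and 9.81% lower. After centring 1 was higher and 2 lower, against 12.2% and 9.32% of all genes. With array weights, a fit that called 49.6% of all genes, 4 were higher and 6 lower. Pcdhb genes lie in 1 tandem row, each with a single large exon and its own promoter. Pcdhb5 read 6.24, 6.23 and 6.05 at 6wk and 7.11, 6.82 and 6.96 at P7 (difference -0.79, SE 0.11, adjusted p = 0.00515). Pcdhb7 read 6.94, 7.01 and 7.04 at 6wk and 7.61, 7.96 and 7.5 at P7 (difference -0.69, SE 0.13, adjusted p = 0.0139). Pcdhb3 read 7.5, 7.54 and 7.54 at 6wk and 7.78, 7.98 and 7.86 at P7 (difference -0.34, SE 0.0870, adjusted p = 0.0354). The ages did not overlap in any of the 3, and P7 replicate 2 was the highest P7 array in Pcdhb7 and Pcdhb3 but the lowest in Pcdhb5. Pcdhb5 was called in each fit that left out 1 array. Its 6wk mean of 6.18 lay under the first quartile of every array, so the size of its fall is uncertain. Pcdhb7 was not called once 1 of the 6wk arrays was left out (adjusted p up to 0.0593). That of Pcdhb3 held in 2 of the 6 such fits (adjusted p up to 0.127) and failed after centring (-0.24, adjusted p = 0.134).

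The other 19 beta protocadherins did not pass, with differences from -0.36 (Pcdhb21) to 0.31 (Pcdhb14). Over the cluster 16 of 22 differences were below 0, and 16 of 22 also after centring or quantile normalization. In the order of the genes along the cluster, Pcdhb2 to Pcdhb10 and Pcdhb17 to Pcdhb22 all had differences below 0, from -0.79 to -0.18. Between them, Pcdhb11, Pcdhb12, Pcdhb14, Pcdhb15 and Pcdhb16 had differences above 0, from 0.05 to 0.31, and Pcdhb13 differed by -0.18. Pcdhb15 read 8.75, 8.70 and 8.56 at 6wk and 8.49, 8.41 and 8.36 at P7 (difference 0.25, adjusted p = 0.103), without overlap. After centring Pcdhb15 passed as higher (0.36, adjusted p = 0.0412), as it did after quantile normalization (0.35, adjusted p = 0.0350), where Pcdhb11 also passed (0.40, adjusted p = 0.0374). This order along the cluster was seen after the values were known and is given without a test. The kept row of Pcdhb11 read 8.11, 7.86 and 7.88 at 6wk and 7.60, 7.69 and 7.69 at P7 (difference 0.29), whereas its second row read 7.73, 7.71 and 7.46 at 6wk and 7.97, 7.72 and 7.73 at P7 (difference -0.17), so its direction depended on the row. Beta protocadherins resemble each other in sequence, and probes that also bind a related gene would bring their values closer together, so single members are uncertain.

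**Figure D5:**
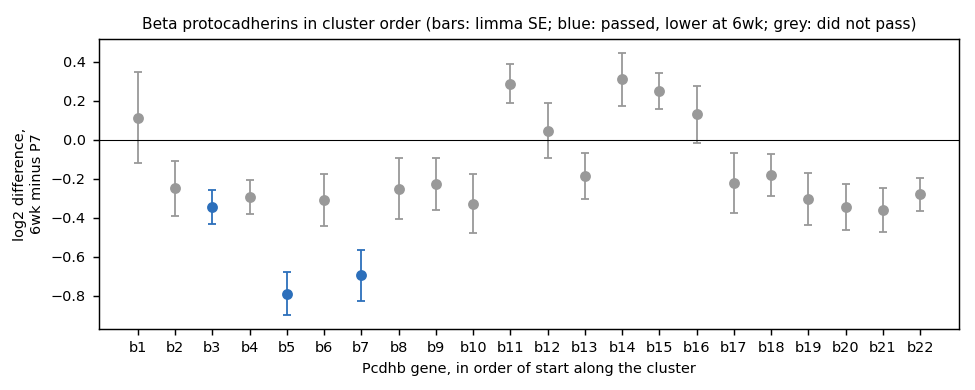
Log2 difference (6wk minus P7, vertical axis) of the 22 beta protocadherins in order along the cluster (horizontal axis), with limma standard errors. The called genes Pcdhb3, Pcdhb5 and Pcdhb7 lie among the first 10, and the differences above 0 lie at Pcdhb1 and between Pcdhb11 and Pcdhb16.

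Catenins and related genes, a list that includes the inhibitor gene Ctnnbip1, changed in both directions, with 2 of 11 higher and 3 lower (median -0.20). The share called was 45.5%, against 21.7% of all genes. After centring or quantile normalization 3 were higher and 2 lower, in fits that called 21.5% and 21.8% of all genes. Jup, which encodes plakoglobin, read 10.50, 10.21 and 10.15 at 6wk and 9.33, 9.10 and 9.14 at P7 (difference 1.10, SE 0.12, adjusted p = 0.00258). Ctnna3, alpha-T-catenin, read 7.72, 7.65 and 7.68 at 6wk and 6.40, 6.38 and 6.11 at P7 (difference 1.38, SE 0.10, adjusted p = 0.000818). The P7 mean of Ctnna3, 6.30, lay under the first quartile of every array, so the size of its rise is uncertain. Both rises were called in each fit that left out 1 array. Ctnna2, the neuronal alpha-N-catenin, fell by 0.82 (SE 0.15, adjusted p = 0.0113), and Ctnnbip1, an inhibitor of beta-catenin signalling, by 0.86 (SE 0.17, adjusted p = 0.0145). Ctnnb1, beta-catenin, fell by 0.41 (adjusted p = 0.0185). None of these 3 calls held in every fit that left out 1 array (adjusted p up to 0.0517, 0.0604 and 0.0888).

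Of 20 large cadherins, desmosomal cadherins and calsyntenins 1 was higher and 5 lower (30% called, against 21.7% of all genes). After centring or quantile normalization 1 was higher and 3 lower, in fits that called 21.5% and 21.8% of all genes. Without P7 replicate 2 there were 4 higher and 6 lower, in a fit that called 26.8% of all genes. Dchs1 and Fat4, which bind each other across cells in planar polarity signalling, fell together. Dchs1 read 7.13, 7.06 and 6.94 at 6wk and 8.69, 8.37 and 8.49 at P7 (difference -1.48, SE 0.11, adjusted p = 0.000826). Fat4 read 6.99, 7.41 and 7.42 at 6wk and 8.58, 9.54 and 8.98 at P7 (difference -1.76, SE 0.26, adjusted p = 0.00570). Both were called in each fit that left out 1 array. Celsr1, a planar polarity cadherin, fell by 0.70 (adjusted p = 0.00788). Cdhr1, a photoreceptor cadherin, fell by 1.6 (adjusted p = 0.0454), with an adjusted p of up to 0.139 when 1 array was left out. The 6wk mean of Cdhr1, 6.11, lay under the first quartile of every array, so the size of its fall is uncertain. Fat1, a giant cadherin that binds Ena/VASP proteins, rose by 0.64 (adjusted p = 0.00909).

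Of 19 effector and shedding genes 1 was higher and 3 lower (21.1% called), a share near the 21.7% of all genes. The largest was Fyn, a kinase that acts in clustered protocadherin and reelin signalling, which read 11.02, 10.93 and 10.98 at 6wk and 11.70, 11.69 and 11.78 at P7 (difference -0.75, SE 0.0791, adjusted p = 0.00212). Cyfip2, a subunit of the WAVE actin regulator that protocadherins recruit, rose by 0.54 (adjusted p = 0.0245), with an adjusted p of up to 0.0973 when 1 array was left out. Abi2, another subunit of that regulator, and Arhgap35 fell by 0.43 and 0.41 (adjusted p of 0.0171 and 0.0308), and each was called in 2 of the 6 fits that left out 1 array. Of 15 factors that act at clustered protocadherin promoters or silence them, 1 was lower and 0 higher (6.67% called), and none passed after centring or quantile normalization. The single call was the histone methyltransferase gene Ehmt2 (difference -0.35, adjusted p = 0.0439), which was called in 1 of the 6 fits that left out 1 array (adjusted p up to 0.158). Without P7 replicate 2 the list had 2 lower, in a fit that called 17.2% of all genes lower. The median of the list was then -0.21, against 0.01 with all arrays. Of its 15 genes, 13 were lowest in P7 replicate 2 among the P7 arrays. Ctcf, whose protein loops the clustered promoters to their enhancers, read 9.73, 9.73 and 9.63 at 6wk and 10.17, 9.13 and 9.75 at P7, with a difference of 0.01 (adjusted p = 0.981). The P7 values of Ctcf spanned its 6wk values.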

How the data were processed

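RNA of C57BL/6 cerebellum was cleared of ribosomal RNA, and biotin-labelled sense cDNA was run on Affymetrix exon arrays, per the labels. Values were deposited as log2 expression. RMA, Affymetrix Power Tools and mm9 appear in the submitters' processing notes, with versions and filters not given in the sources used here. Each of the 23750 rows holds 1 value per transcript cluster, so a change in a single exon or isoform cannot be seen. The number of arrays limits the precision.

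Rows with 1 gene symbol (18463) were kept, 1799 with several and 3488 with none were not, and 471 genes with several rows were read from their highest-mean row, giving 17858 genes. Symbols were compared with RefSeq of GRCm38.p6, which changed 0. Each gene was fitted with limma 3.58.1 (R 4.3.3; lmFit, eBayes) for 6wk minus P7 with no block, and the adjustment ran over all genes. The steps were tested on simulated data.

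The members and all lists were chosen with earlier results of these data known. Values in every array are given for members called or with a difference of at least 1, and for some others chosen after their values were seen. Of the partner and endothelial lists, the 4 called genes with the largest differences are named (all where fewer were called), with some others chosen after their values were seen. Of the other marker lists, counts are given and genes are named only beside a member's result. Alternatives were quantile normalization, centring on array medians, the mean of a gene's rows, leaving out dim genes, a replicate block, array weights, a variance trend and leaving out each array. P7 replicate 1 as the single P7 array was added after seeing the data.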

Additional observations from a re-analysis of the deposited data

How the results depend on the processing

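The calls of 5 higher and 20 lower members were within 1.5 times of these numbers under quantile normalization, median centring, the mean of a gene's rows, leaving out dim genes (49 members left), the replicate block and the variance trend. With array weights 10 members were higher and 28 lower (17.9% and 50%), against 18.7% and 30.9% of all genes, and with P7 replicate 1 alone 3 were higher and 15 lower. Leaving out 1 array at a time gave 3 to 6 higher and 11 to 24 lower members, and class medians of -0.41 to -0.53 for cadherins, -0.91 to -1.62 for non-clustered protocadherins and -0.20 to -0.31 for beta protocadherins. The beta protocadherin median of -0.25 was -0.14 after centring (-0.142) and after quantile normalization (-0.144), and the non-clustered protocadherin median of -1.23 was -0.53 with P7 replicate 1 alone; the cause was not tested. The replicate block gave 5 higher and 20 lower members. It lost Cdh20 and Pcdhb3 (adjusted p of 0.0591 and 0.0741) and gained Pcdh10 and Pcdh19 (0.0201 and 0.0143). Deviations from the age means correlated at 0.27, 0.14 and -0.06 between arrays numbered 1, 2 and 3. Arrays of unlike number were not compared, so these values cannot decide whether the numbers pair the samples. No called member changed sign under any alternative run, and 14 of 25 calls passed whichever of the 6 arrays was left out.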
